A study of Rattus norvegicus with 24 samples.

Results

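Enpp2, Lpar3 and Sphk1 are 3 genes of lysophospholipid signalling, followed here across strain and side in the carotid bodies (CBs) of hypertensive and normotensive rats. They were taken by symbol from the 1273 genes for which the study paired an identifier with a name, out of 32623 genes in the deposited count matrix. The identifiers are ENSRNOG00000004089 for Enpp2, ENSRNOG00000015260 for Lpar3 and ENSRNOG00000010626 for Sphk1. All 3 genes were selected on their measured difference between strains, as genes higher in the spontaneously hypertensive rat, so the difference between strains is given below as a description without a test, and only differences between sides were tested.

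Lysophospholipids are lipids with a single fatty chain that act as extracellular signals. Enpp2 encodes autotaxin, a secreted lysophospholipase D that makes lysophosphatidic acid (LPA) from lysophosphatidylcholine, and Lpar3 encodes one of the G protein-coupled receptors for LPA. Sphk1 encodes sphingosine kinase 1, which phosphorylates sphingosine to sphingosine 1-phosphate, the second main signalling lipid of this kind. The CB is the paired chemosensory organ at the carotid bifurcation, in which glomus cells sense blood oxygen and excite the carotid sinus nerve, and LPA is known to stimulate the CB.

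The groups were male spontaneously hypertensive rats (SHR/NHsd) and male normotensive Wistar-Kyoto rats (WKY/NHsd), both inbred, 12 to 14 weeks old. Left and right CBs were sequenced separately after perfusion with saline, which gave 24 libraries from 12 rats, 6 of each strain. The 4 groups were therefore left and right CB of WKY and of SHR, with 6 libraries each before 1 was set aside. Because each strain is a single inbred line, strain differences cover every inherited difference between the lines and not blood pressure alone.

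Libraries held 9198341 to 13655419 counted reads, with a median of 9818602.5. The label of CB tissue was checked against 8 of 13 glomus cell markers that had a paired identifier (Dbh, Chga, Chgb, Ret, Sstr1, Sstr2, Agtr2 and Gata3). Their summed level was 1251 to 2783 CPM (counts scaled to library size) in 23 libraries and 78.1 CPM in the right CB of the rat SHR34. In that library Sstr2 had 0 counts and Agtr2 had 2 counts, and thyroglobulin (Tg), the thyroid hormone precursor, reached 7849 CPM against at most 218 CPM elsewhere. The library labelled right CB of SHR34 thus stood apart from its label, and values below are from the other 23 libraries unless the 24 are named. The strain table of the study also left it out. This left 12 WKY and 11 SHR libraries.

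Enpp2 was the abundant transcript and was higher in SHR in every library. In left CBs of WKY its level was 340 CPM at the lowest, 365 CPM at the median and 411 CPM at the highest. In right CBs of WKY the corresponding levels were 260, 390 and 405 CPM. In left CBs of SHR the corresponding levels were 707, 843 and 899 CPM. In the 5 right CBs of SHR the levels were 722, 744, 792, 891 and 704 CPM. No SHR library overlapped any WKY library, a separation with SHR on top that 0.926% of the 14258 genes tested also showed.

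Averaged over both CBs of a rat, the WKY rats had 369 ± 25.9 CPM of Enpp2 and the SHR rats had 805 ± 56.2 CPM (SD, 6 rats each). The fitted log2 fold change (LFC) of SHR against WKY was 1.12 with a standard error (SE) of 0.0629, or 2.17-fold. Taken within one side, the LFC was 1.16 (SE 0.0884) in left CBs and 1.07 (SE 0.0916) in right CBs. With all 24 libraries the LFC was 0.997 (SE 0.197). In bulk tissue a change in the number of cells that express a gene and a change in transcript per cell cannot be told apart, and this holds for all 3 genes.

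**Figure D1:**
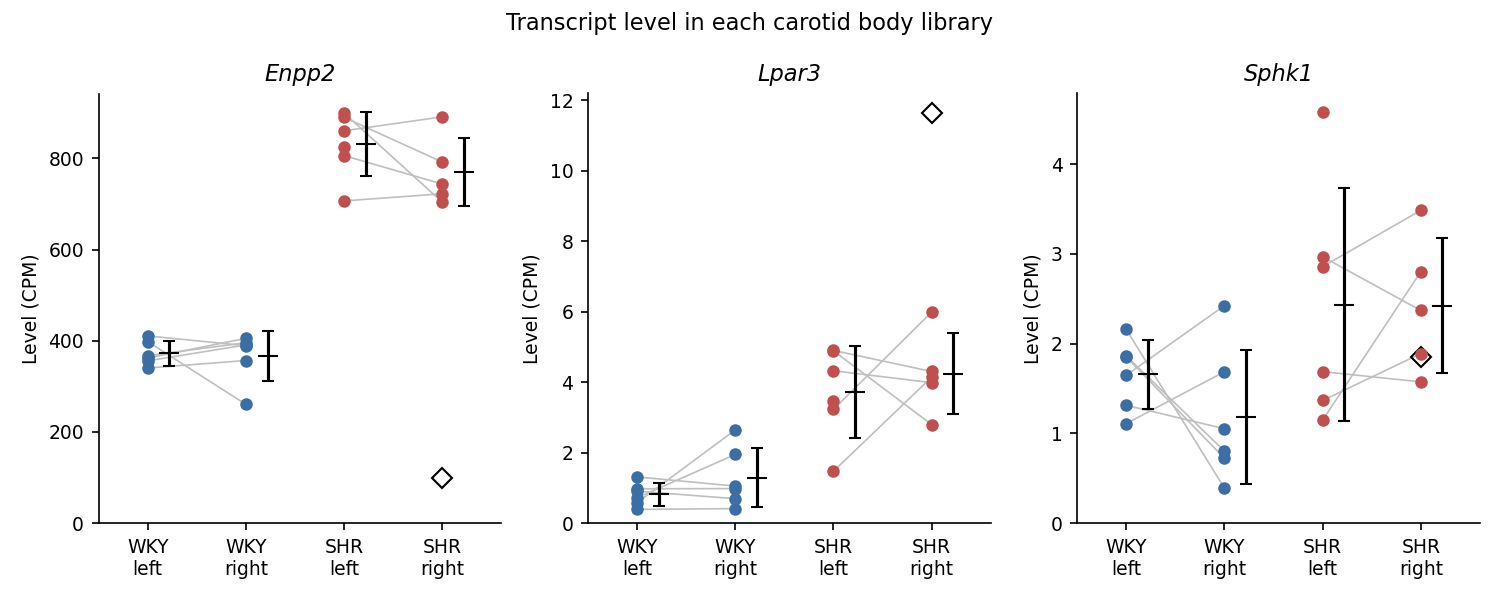
Level in CPM (vertical axes, from 0) of Enpp2, Lpar3 and Sphk1 in each library of the 4 groups. Filled points are the 23 libraries used, grey lines join the left and right CB of a rat, black bars give the mean ± SD of a group, and the open diamond is the right CB of SHR34. Enpp2 separates the strains in all 23 libraries, whereas the ranges of Lpar3 and Sphk1 overlap.

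Lpar3, the LPA receptor gene, had the greatest strain difference of the 3 and few reads behind it. WKY libraries held 4 to 24 reads of Lpar3, with a median of 9.5, and SHR libraries held 14 to 67 reads, with a median of 41. In CPM, the lowest, median and highest levels were 0.390, 0.814 and 1.31 in left CBs of WKY. They were 0.413, 1.02 and 2.64 in right CBs of WKY. The strain ranges overlapped because of a low left CB in SHR31, at 1.47 CPM, and 2 high right CBs in WKY36 and WKY37, at 2.64 and 1.95 CPM.

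In left CBs of SHR the lowest, median and highest Lpar3 levels were 1.47, 3.89 and 4.90 CPM. The 5 right CBs of SHR were at 4.31, 4.14, 5.99, 3.99 and 2.80 CPM. Averaged over each rat's CBs, the WKY rats had 1.05 ± 0.425 CPM of Lpar3 and the SHR rats 3.91 ± 0.700 CPM (SD, 6 rats each). The 6 WKY rats lay between 0.402 and 1.61 CPM and the 6 SHR rats between 2.81 and 4.61 CPM, so the strains did not overlap by rat, which 3.39% of genes tested also showed with SHR on top. The LFC was 1.94 (SE 0.255), or 3.85-fold.

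Lpar3 had an LFC of 2.18 (SE 0.367) in left CBs and 1.72 (SE 0.359) in right CBs. The coefficient of variation of Lpar3 over libraries was 62.4% in WKY and 30.4% in SHR. Counting error alone would give 30.9% in WKY and 15.5% in SHR, so the scatter of single libraries was about 2 times what read counting sets. For Enpp2 counting error alone would give 1.64% in WKY and 1.09% in SHR, against 11.1% and 9.44% over libraries. The spread of Enpp2 between libraries was thus several times what its depth sets.

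Sphk1, the kinase that makes sphingosine 1-phosphate, was also a low transcript, and its strains overlapped. WKY libraries held 4 to 22 reads, with a median of 15, and SHR libraries held 11 to 41 reads, with a median of 26. In left CBs of WKY the lowest, median and highest levels were 1.11, 1.75 and 2.16 CPM, and in right CBs of WKY they were 0.390, 0.928 and 2.42 CPM. In left CBs of SHR they were 1.15, 2.27 and 4.58 CPM. The 5 right CBs of SHR were at 2.80, 1.89, 3.49, 1.57 and 2.37 CPM, and each of these lay within the range of the left CBs of SHR.

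Averaged by rat, the WKY rats had 1.42 ± 0.311 CPM of Sphk1 and the SHR rats 2.61 ± 1.14 CPM (SD, 6 rats each). The rats overlapped: WKY reached 2.04 CPM, in WKY36, and 3 SHR rats (SHR30, SHR31 and SHR36) lay below that, at 1.98, 1.63 and 1.63 CPM. The highest rat was SHR34, for which the left CB alone entered, at 4.58 CPM. The LFC was 0.78 (SE 0.260), or 1.72-fold, and without SHR34 it was 0.66. Within left CBs the LFC of Sphk1 was 0.55 (SE 0.357) and within right CBs it was 1.05 (SE 0.383).

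Among all genes tested, 20.1% were called between strains and 10.2% were called higher in SHR, at an adjusted p under 0.05 (edgeR quasi-likelihood test, Benjamini-Hochberg). The 3 genes were among them, which the choice of the genes fixed. By LFC, Enpp2 stood at percentile 99.2, Lpar3 at 99.7 and Sphk1 at 98.5 of the genes tested.

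Whether the left and right CB differed was independent of how the genes were chosen, and was tested within each strain. None of the 3 genes passed the test in either strain. In WKY the left minus right LFC was 0.02 (SE 0.0875) for Enpp2, -0.65 (SE 0.393) for Lpar3 and 0.50 (SE 0.379) for Sphk1, each with an adjusted p of 0.9999 (edgeR quasi-likelihood test). In SHR it was 0.11 (SE 0.0915) for Enpp2, -0.19 (SE 0.333) for Lpar3 and 0.007 (SE 0.363) for Sphk1, with adjusted p-values of 0.802, 0.935 and 0.999. Over all genes, 0% were called between the sides in either strain with edgeR, and 0 genes with DESeq2, whereas 1.59% in WKY and 7.74% in SHR had an unadjusted p under 0.05.

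In the order of group means, Enpp2 ran from right CB of WKY (366 ± 54.4 CPM) through left CB of WKY (372 ± 26.7 CPM) and right CB of SHR (770 ± 75.0 CPM, n = 5) to left CB of SHR (831 ± 70.8 CPM; SD, n = 6 for the other groups). The pair of sides within a strain did not differ beyond its spread. Lpar3 ran from left CB of WKY (0.815 ± 0.325 CPM) through right CB of WKY (1.29 ± 0.842 CPM) and left CB of SHR (3.71 ± 1.30 CPM) to right CB of SHR (4.25 ± 1.14 CPM). Sphk1 ran from right CB of WKY (1.18 ± 0.748 CPM) through left CB of WKY (1.66 ± 0.387 CPM) to right and left CB of SHR (2.42 ± 0.755 and 2.43 ± 1.30 CPM).

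Since both CBs of a rat come from the same animal, the sides were also compared within the 11 rats with both libraries. Enpp2 was higher on the left in 5 of 11 rats, with a mean difference of 0.07 ± 0.236 in log2(CPM + 0.5) and p = 0.388 (SD, exact two-sided sign-flip permutation test). Lpar3 was higher on the left in 5 of 11 rats, with a mean difference of -0.29 ± 0.727 and p = 0.227 by the same exact test. Sphk1 was higher on the left in 6 of 11 rats, with a mean difference of 0.13 ± 0.752 and p = 0.575 by the same exact test. Adjusted over the 3 genes, each exact p was 0.575. The pairs of Lpar3 and Sphk1 scattered about 3 times as widely as those of Enpp2, whose widest pair, in WKY36, differed by 0.61.

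**Figure D2:**
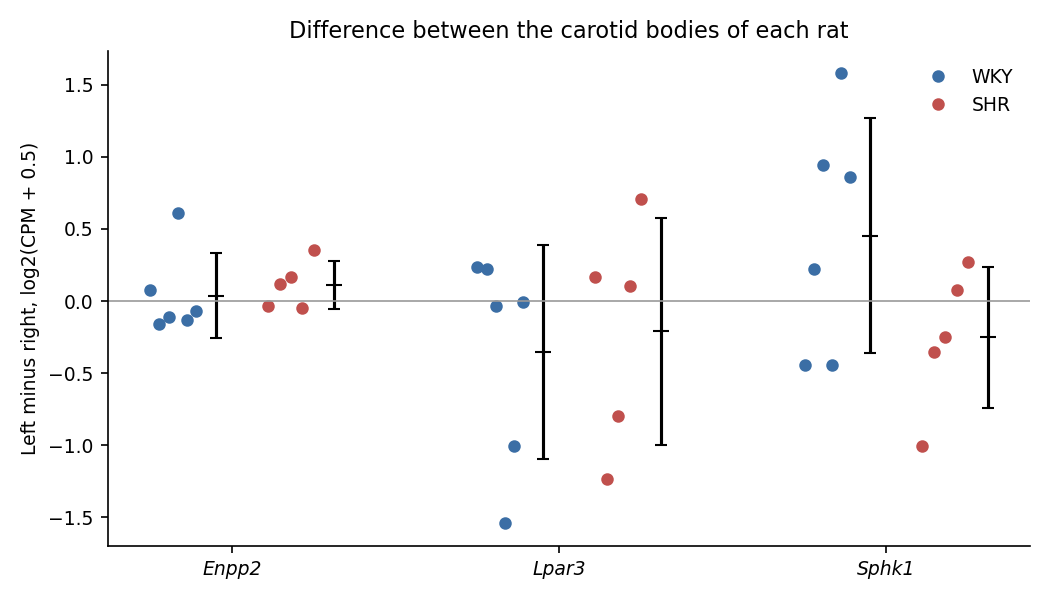
Left minus right difference in log2(CPM + 0.5) (vertical axis) for each of the 11 rats with both CBs, by gene and strain; black bars give the mean ± SD over the 6 WKY or 5 SHR rats. Points fall on both sides of 0 for each gene in each strain.

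Whether the difference between sides itself differed by strain was tested for each gene. The left CB had more Sphk1 in 4 of 6 WKY rats and in 2 of 5 SHR rats, and more Enpp2 and more Lpar3 in 2 of 6 WKY rats and in 3 of 5 SHR rats. For Sphk1 the mean difference over rats was 0.45 ± 0.817 in WKY and -0.25 ± 0.490 in SHR (SD). The difference between these did not pass the exact permutation test over rats, with p = 0.128 (0.383 adjusted over the 3 genes). For Enpp2 and Lpar3 the same exact test gave p = 0.628 and p = 0.753. In the edgeR fit the interaction of strain and side was 0.09 (SE 0.127) for Enpp2, 0.45 (SE 0.512) for Lpar3 and -0.49 (SE 0.523) for Sphk1, each with an adjusted p of 0.999, beside 0% of genes called and 3.07% with an unadjusted p under 0.05.

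Enpp2 was next set beside glomus cell transcripts in single libraries. The right CB of WKY36 had the lowest Enpp2 of the 12 WKY libraries, at 260 CPM against 357 CPM for the next right CB and 398 CPM on the left of the same rat. It also had the lowest summed glomus markers of the 12, at 1251 CPM, and the highest Lpar3 and Sphk1 of the WKY libraries, at 2.64 CPM (24 reads) and 2.42 CPM (22 reads). Among SHR libraries the right CB of SHR37 was lowest for both Enpp2 and the glomus markers, at 704 and 1804 CPM. The right CB of WKY34 went the other way, with the second lowest glomus sum of WKY, 1352 CPM, and 396 CPM of Enpp2. So did the left CB of WKY41, with the lowest Enpp2 (340 CPM) and highest glomus sum (1725 CPM) of left WKY CBs. The left CB of SHR37 had the highest Enpp2 of SHR, 899 CPM. Its glomus sum, 2108 CPM, was below the SHR median of 2222 CPM. Without WKY36 the LFC of Enpp2 was 1.08, that of Lpar3 2.06 and that of Sphk1 0.91.

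Like the right CB of WKY36, the right CB of SHR34 was low in Enpp2 and high in Lpar3, but its other markers differed. Tg was at 0.661 CPM in the right CB of WKY36 and 7849 CPM in the right CB of SHR34. The glomus sums were 1251 and 78.1 CPM. In the right CB of SHR34 Enpp2 was at 99.1 CPM (801 reads), below all 23 other libraries and 8.27-fold below the left CB of the same rat. Lpar3 was at 11.6 CPM (94 reads), above all 23 other libraries and 3.39-fold above the left CB. Sphk1 was at 1.86 CPM (15 reads), above 14 of the 23. In this library the summed adipocyte markers (Adipoq, Fabp4, Cfd, Lpl and Cd36) were at 518 CPM against 56.4 to 161 CPM elsewhere, of which Fabp4 had 385 CPM and Cd36 83.7 CPM, whereas Cfd and Lpl, at 1.11 and 41.6 CPM, were below the medians of both strains. The neuronal markers (Prph, Nefh, Scn9a and Chrna3) were at 40.5 CPM against 236 to 528 CPM.

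Of the 5 named genes most like Enpp2 across the 23 libraries, only Agtr2 was on the list of glomus markers. The mean of each strain and side was removed first. Agtr2, the type 2 angiotensin II receptor, had a Pearson r of 0.82 (Spearman 0.68), at rank 11 among all genes tested. Tmem35a, RGD1564463, Dpysl3 and Il18rap followed at r = 0.71 to 0.72, at ranks 42 to 58. Without the 2 libraries farthest from the median of Enpp2 (left CB of SHR30 and right CB of WKY36), r was 0.68 for Agtr2 and 0.33 to 0.59 for the others. Agtr2 was at 89.7 to 259 CPM in WKY and 326 to 557 CPM in SHR, and at 0.248 CPM in the right CB of SHR34. The others were low in that library too. Tmem35a was at 9.65 CPM there and RGD1564463 at 0.248 CPM, against lowest WKY levels of 43.9 and 27.2 CPM. Dpysl3 was at 22.5 CPM and Il18rap at 1.11 CPM, against lowest WKY levels of 168 and 93.2 CPM. These are descriptions, since the 5 genes were picked for their r, only the 1273 named genes could be listed, and the libraries share rats.

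The glomus sum includes Agtr2, the gene just listed for its r with Enpp2. Its largest parts were Chga and Chgb, at WKY medians of 615 and 533 CPM beside 1630 CPM for the sum. With the summed glomus markers the within-group r of Enpp2 was 0.57 (Spearman 0.35) over the 23 libraries. With the blood endothelial marker Mmrn2 it was -0.50 (Spearman -0.59), with summed smooth muscle and lymphatic endothelial markers -0.38 each, and with the other lists it lay between -0.28 and 0.21. Over the 12 rats, each taken as its difference from its strain mean, Pearson's r was 0.51 with p = 0.103 and Spearman's rho was 0.45 with p = 0.170 (permutation test within strains, 0.308 and 0.510 adjusted over the 3 genes). Leaving out the 2 rats farthest from the median of the markers (SHR30 and SHR37) gave r = 0.39. For Lpar3 the same values over rats were r = 0.06 (permutation p = 0.836) and rho = -0.06 (p = 0.865), and r was 0.26 without those 2 rats. For Sphk1 they were r = -0.12 (permutation p = 0.759) and rho = -0.30 (p = 0.418), and r was -0.28 without them. A relation between glomus markers and any of the 3 genes within strains was not shown at this number of rats.

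**Figure D3:**
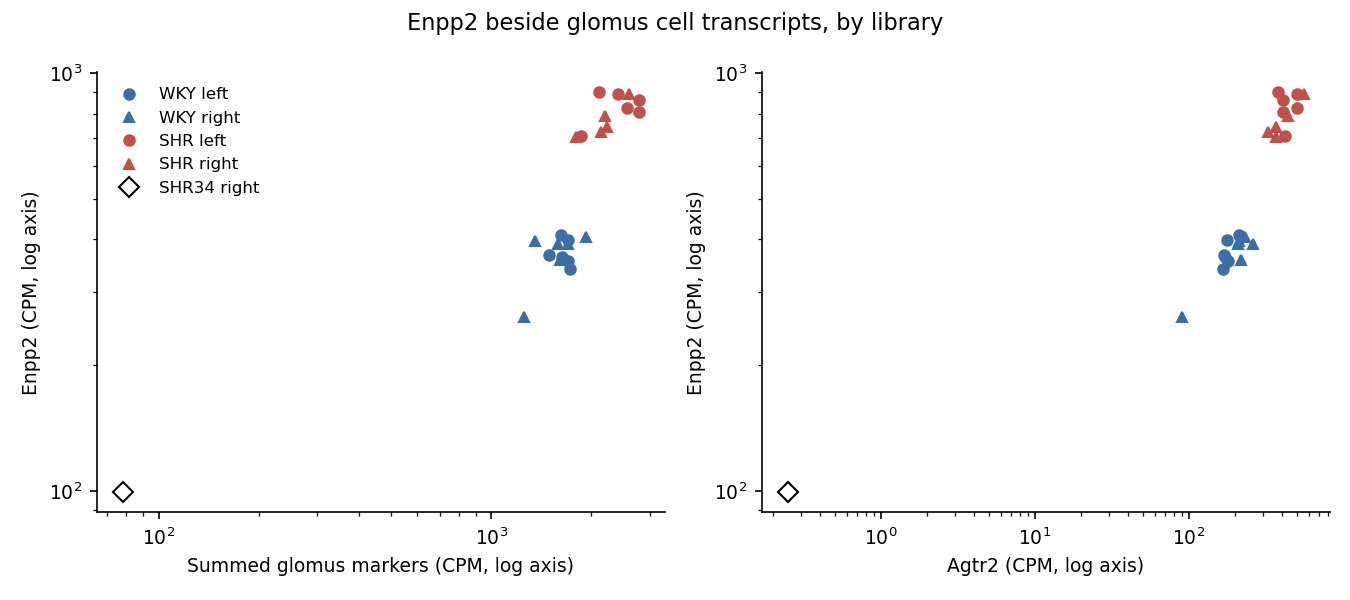
Enpp2 in CPM (vertical axes) against the summed glomus markers and against Agtr2 in CPM (horizontal axes), all on log axes; each point is a library, coloured by strain and shaped by side, and the open diamond is the right CB of SHR34. The right CB of WKY36 has the lowest Enpp2 of the WKY libraries, and the right CB of SHR34 lies below all others on each axis.

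Between strains, the glomus markers were higher in SHR, as Enpp2 was. Their sum was 1251 to 1923 CPM (median 1630) in WKY and 1804 to 2783 CPM (median 2222) in SHR. The library medians of Enpp2 were 378 CPM in WKY and 806 CPM in SHR. Of the 8 glomus markers, 7 were called higher in SHR. Most genes that carry a name here are higher in SHR, so this count has no direction of its own. Of the other marker lists, 4 of 4 neuronal, 7 of 8 macrophage, 2 of 2 mast cell, 3 of 5 adipocyte, 1 of 2 fibroblast, 1 of 3 lymphatic endothelial and 0 of 3 smooth muscle markers were called higher in SHR, as were the 1 blood endothelial marker (Mmrn2) and Tg, beside 10.2% of all genes tested. The part of these cell type levels in the strain difference of the 3 genes was not tested.

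No close relation among the 3 genes was seen within groups. The within-group r was -0.34 between Enpp2 and Lpar3, -0.29 between Enpp2 and Sphk1, and 0.16 between Lpar3 and Sphk1. Without the 2 farthest libraries for Enpp2 (left CB of SHR30 and right CB of WKY36), the first of these was 0.09 and the second was -0.21. Without the 2 farthest for Lpar3 (right CB of WKY36 and left CB of SHR31), Lpar3 had r = -0.13 with Enpp2 and -0.19 with Sphk1. Without the 2 farthest for Sphk1 (left CB of SHR34 and right CB of WKY36), Sphk1 had r = 0.04 with Enpp2 and -0.04 with Lpar3. For Lpar3 the named genes most alike were Elfn1 (r = 0.67), Ggn, Gstm6, Podnl1 and Sec22c (0.55 to 0.61), and for Sphk1 they were Zcchc8 and Tbx1 (both 0.67), Ankle1, Klhl35 and Slc35g1 (0.58 to 0.62). Both lists, and each r among the 3 genes, rest on transcripts with few reads. Counting error lowers such an r, so a closer relation could be missed.

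A list of 71 genes of LPA and sphingosine 1-phosphate metabolism and their receptors was then examined, of which 12 had a paired identifier, the 3 genes included. Of the other 9, 8 were called higher in SHR, 0 lower and 1 was not called, beside 10.2% of all genes tested called higher, with a median LFC of 0.49 against 0.006 for all genes tested. Because the names come from a table that holds nearly only genes higher in SHR, neither the count nor the median speaks to direction. With all 24 libraries 2 of the 9 were called, in left CBs alone 5, and in right CBs alone 0, where the genes called over the whole matrix fell from 2863 to 1483, 1270 and 838. The fit takes the left and right CB of a rat as separate samples, and with counts summed per rat 6 of the 9 and 2041 genes in all were called.

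Of the other genes of the lysophospholipid list, Enpp6, a choline-specific lysophospholipase C, had an LFC of 1.04 (SE 0.275). The secreted phospholipase A2 genes Pla2g2d and Pla2g12a, whose products release lysophospholipids, had LFCs of 1.28 (SE 0.316) and 0.49 (SE 0.0908). Plppr1 and Plppr5, members of the phospholipid phosphatase-related family, had LFCs of 1.29 (SE 0.365) and 0.79 (SE 0.229). All 5 were called in the strain comparison, which the source of the names favours. Enpp3, a nucleotide phosphodiesterase of the Enpp family, was not called (LFC 0.37, adjusted p = 0.0627, edgeR). Apart from Enpp3 and Pla2g12a these were sparse transcripts like Lpar3, and in the right CB of SHR34 Enpp6 had 1 read and Plppr1 and Plppr5 had 0. In that library Pla2g12a was at 27.2 CPM, above the highest of the other 23 (21.8 CPM), Pla2g2d was at 3.09 CPM and Enpp3 was at 79.7 CPM.

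Of the genes upstream of Sphk1, the ceramidases Asah2 and Acer2, which free sphingosine from ceramide, both had an LFC of 0.37 (SE 0.115 and 0.0876). Smpd3, the neutral sphingomyelinase that makes ceramide, had an LFC of 0.36 (SE 0.0751). All 3 were called, which the source of the names favours here too.

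None of the 12 genes was called between left and right in either strain or for the interaction of strain and side (edgeR), and 0 of them had an unadjusted p under 0.05 in these 3 comparisons. Enpp2 had the smallest SE of the 12, 0.0629, and also the highest mean scaled count, 5914.5. Smpd3 came next on both, with an SE of 0.0751 and a mean scaled count of 2799. The LFC of Enpp2 was below those of Lpar3, Plppr1 and Pla2g2d only.

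**Figure D4:**
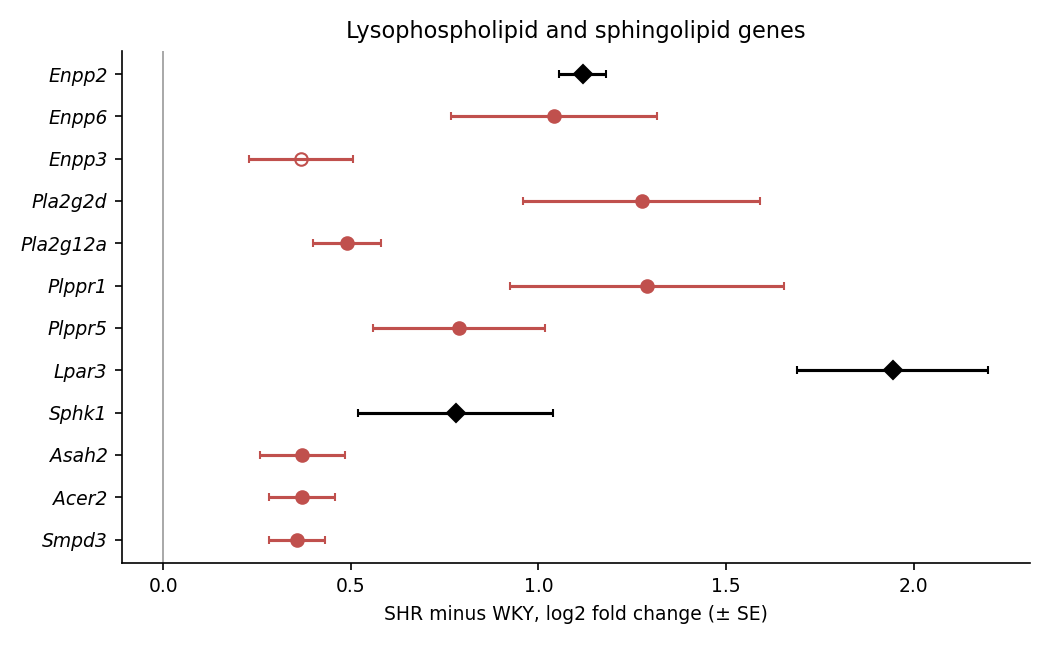
LFC of SHR against WKY (horizontal axis, ± SE) for the 12 named genes of the list; black diamonds are Enpp2, Lpar3 and Sphk1, and open circles are genes with an adjusted p of 0.05 or more. All 12 lie above 0, which the choice of named genes favours.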

How the data were processed

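Poly-A RNA of single CBs was sequenced. The authors deposited a matrix of raw read counts per gene, made with STAR and featureCounts per the submitters' processing notes; the genome build and versions are not given in the sources used here. Identifiers were paired with symbols only through the study's table of strain differences, of which no value was used. The genes, gene lists and tests were chosen with earlier results of these data known.

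Counts were scaled by TMM and fitted with edgeR 4.0.16 (R 4.3.3) by the robust quasi-likelihood method over 14258 genes with a mean scaled count above 10, on 23 libraries, with side and strain as terms, and with 4 group means for the sides. P-values were adjusted by Benjamini-Hochberg over all genes tested. CPM are TMM-scaled, and 0.5 was added before logs. Named genes were the 3 members, every listed lysophospholipid and sphingolipid gene with an identifier, and for each member the 5 named genes with the highest within-group r. Permutation tests over rats used 100000 draws, or every arrangement where called exact. SDs are between rats or CBs, and counting errors cover counting only. DESeq2 1.42.0, limma 3.58.1, other filters and scalings, other library sets and leaving out each rat were tried as alternatives, and the scripts were tested on simulated counts. Of 253 pairs of libraries none agreed within counting noise. Deviations of left and right CB of the same rat, paired by the titles, correlated at -0.0357 to 0.283 (median 0.115). A further group of listed genes is not reported here. The genome sequence, and protein sequences, were not used here.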

Additional observations from a re-analysis of the deposited data

Results flagged for a closer look

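In right CBs of WKY, Enpp2 in WKY36 was at 260 CPM, and its gap to the nearest of the 6 libraries exceeded Dixon's critical value for a group of this size. With all 24 libraries the right CB of SHR34 stood out in the same way among right CBs of SHR, for Enpp2 at 99.1 CPM and for Lpar3 at 11.6 CPM. Its Lpar3 level, in a library not used in the comparisons, was also above every WKY library. Over 15 groups and genes examined, chance marks about 1 in 20.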

How the results depend on the processing

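Of 378 values under the alternatives, 354 were kept: tested values stayed on the same side of 0 and of the threshold, counts stayed within 1.5 times, and strain LFCs, which have no test, moved by less than the spread between rats. The strain LFC of Enpp2 moved to 0.997 with all 24 libraries. The 2863 genes called between strains became 1483 with all 24 libraries, 1270 in left CBs alone and 838 in right CBs alone, and the 8 other pathway genes called became 2, 5 and 0. Rat numbers shared by both strains do not pair the rats (correlations of -0.243 to 0.062 over 4 numbers). With them as a replicate block, 1568 genes and 4 pathway genes were called, and the same libraries without the block, an alternative chosen after seeing the data, gave 1638 and 3. With the rat as a block the left minus right LFC of Sphk1 in SHR turned to -0.31, and with all 24 libraries and the block, also chosen later, to -0.041; no other direction or call of the 3 genes between sides changed with the rat as a block. Between strains, limma voom with the rat as a block called 2315 genes and 8 pathway genes, and counts summed per rat gave 2041 and 6.

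Leaving out each rat in turn gave a left minus right LFC of -0.079 (without WKY36) to 0.06 for Enpp2 in WKY, of -0.40 to 0.0062 (without SHR33) for Lpar3 in SHR, and of -0.26 to 0.21 for Sphk1 in SHR, where leaving out SHR34, SHR36 or SHR37 turned it. Over rats with both CBs, Sphk1 ran from -0.012 (without WKY37) to 0.25. Genes called between sides in SHR ran from 0 to 1 (1 without SHR37), and those between strains from 2193 to 2831. By Spearman correlation 2, 3 and 3 of the 5 genes most like Enpp2, Lpar3 and Sphk1 were kept, and with all 24 libraries 1 of 5 for Lpar3. The cause of these changes was not tested. Depth limits Lpar3 and Sphk1, whose WKY medians were 9.5 and 15 reads.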
